A study of Homo sapiens with 24 samples.

Results

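The genes described here are 33 members of 6 solute carrier families, SLC1, SLC3, SLC6, SLC7, SLC38 and SLC43, most of which encode amino acid transporters. They were chosen by symbol alone, as the entries of the deposited value table whose gene symbol starts with SLC1A, SLC3A, SLC6A, SLC7A, SLC38A or SLC43A and a digit, without SLC7A11. They are 33 of 20747 entries, and of the 18172 entries with a gene symbol that were tested. SLC1 has 4 members, SLC3 has 1, SLC6 has 9, SLC7 has 6, SLC38 has 10 and SLC43 has 3. A further 24 symbols of these families are in the array annotation but not in the deposited value table, so they could not be analysed. SLC7A6OS fits the rule by its name, but it is a gene on the opposite strand beside SLC7A6 and not a carrier.

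The RNA on the 24 Illumina arrays came from HCT116, a line of human colorectal carcinoma cells, all of them transfected and grown in DMEM with glucose. In one arm the cells received siMock and in the other siACL, which targets ATP citrate lyase (ACLY), the enzyme that makes cytosolic acetyl-CoA from citrate. Each arm was left untreated or given butyrate, a short-chain fatty acid and histone deacetylase inhibitor, at 0.5, 2 or 5 mM for 3 days. Each of the 8 groups holds 3 arrays, which the labels call biological replicates. No group was without transfection, and nothing in the sources used here says what siMock contains. The design asks how butyrate alters expression with dose and whether ACLY depletion alters that response.

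Amino acids cross the cell membrane through carriers that are driven by sodium, by exchange for another amino acid, or by neither. Light chains of the SLC7 family, such as SLC7A5 (LAT1), reach the membrane as pairs with a heavy chain of the SLC3 family, and import leucine and other large neutral amino acids in exchange for intracellular ones such as glutamine. SLC1A5 and SLC38 carriers bring in glutamine, the SLC1 glutamate carriers bring in glutamate and aspartate, and several SLC6 carriers move glycine, proline, taurine, creatine or GABA. In tumour cells of the colon the leucine and glutamine carriers supply protein synthesis and the signalling kinase complex mTORC1.

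Values are normal scores: the rank of an entry within its array is placed on a standard normal curve, so that 0 is the middle of the array. Differences of scores are therefore no fold changes, and a shift common to every gene stays out of sight. A gene was called higher or lower where the Benjamini-Hochberg adjusted p of limma, fitted over all 18172 genes and all 24 arrays, was under 0.05. A difference between 2 groups is that of their means (n = 3 each), with its standard error after the ± sign. The 3 doses of an arm share its untreated arrays. Within-group correlations over genes were 0.928 to 0.955, and no batch is named in the labels. Of 7 epithelial markers measured, EPCAM, KRT8, KRT19 and CDH1 were at or above percentile 85.7 of every array, CDX2 and KRT18 were above the middle of all 24 arrays (at lowest percentiles 67.7 and 52.2), and KRT20, of differentiated colon cells, was below it in all 24 (percentiles 5.4 to 40.4). At 5 mM in siMock EPCAM (-0.53 ± 0.035), KRT18 and CDX2 fell and KRT19 rose. Of 3 fibroblast markers, COL1A2 and COL3A1 were below the middle of all arrays, and COL1A1 was above it in 22 and rose at 5 mM (0.47 ± 0.034 in siMock and 0.52 ± 0.034 in siACL). The endothelial markers PECAM1 and VWF were below it in all 24, and VWF rose at 5 mM (1.74 ± 0.48 in siMock and 1.54 ± 0.48 in siACL). CD68, the 1 leukocyte marker measured, was above it in all 24, and SYP, the 1 neuronal marker measured, in 6, with a rise at 5 mM of 3.12 ± 0.22 in siMock. The part of such genes in the results was not tested. ACLY itself was lower in siACL at each dose: its scores were 1.50, 1.53 and 1.53 in untreated siMock and 1.17, 1.21 and 1.17 in untreated siACL (difference -0.34 ± 0.022), and the arm difference was -0.63 ± 0.022 at 5 mM.

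With butyrate more of these genes fell than rose, in both arms. In bulk RNA of a culture, fewer cells with a transcript and less of it per cell cannot be told apart. In siMock 11 of the 33 members fell and 2 rose at 0.5 mM, 12 fell and 3 rose at 2 mM, and 12 fell and 6 rose at 5 mM. Over all genes tested, 10.1%, 19.3% and 25.2% fell at the 3 doses and 12%, 18.7% and 25.6% rose. In all, 39.4%, 45.5% and 54.5% of the members were called, against 22.1%, 37.9% and 50.8% of all genes, so the total share was near the background at 5 mM. The median difference of the members was -0.109, -0.141 and -0.149, beside -0.008, -0.01 and -0.013 over all genes. In siACL 3 members fell and 1 rose at 0.5 mM, 11 fell and 3 rose at 2 mM, and 12 fell and 4 rose at 5 mM, where 2.45%, 12.8% and 22.6% of all genes fell and 4.79%, 13.7% and 22.7% rose. The called members were 12.1%, 42.4% and 48.5%, against 7.24%, 26.5% and 45.2% of all genes, and the medians were -0.008, -0.159 and -0.093. Of the falls at 5 mM, 11 were called in both arms, and no member was called in opposite directions in the 2 arms at any dose. The shares of all genes called in both arms or in opposite directions were not computed, so these counts are not set against a background. With only the 6 arrays of a comparison in the fit, 5 members were called in siMock at 0.5 mM, all of them lower, beside 8.36% of all genes. In siACL at 0.5 mM 0 members were called by limma in that fit, with 10 at an unadjusted p under 0.05, beside 1.45% of all genes called.

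**Figure D1:**
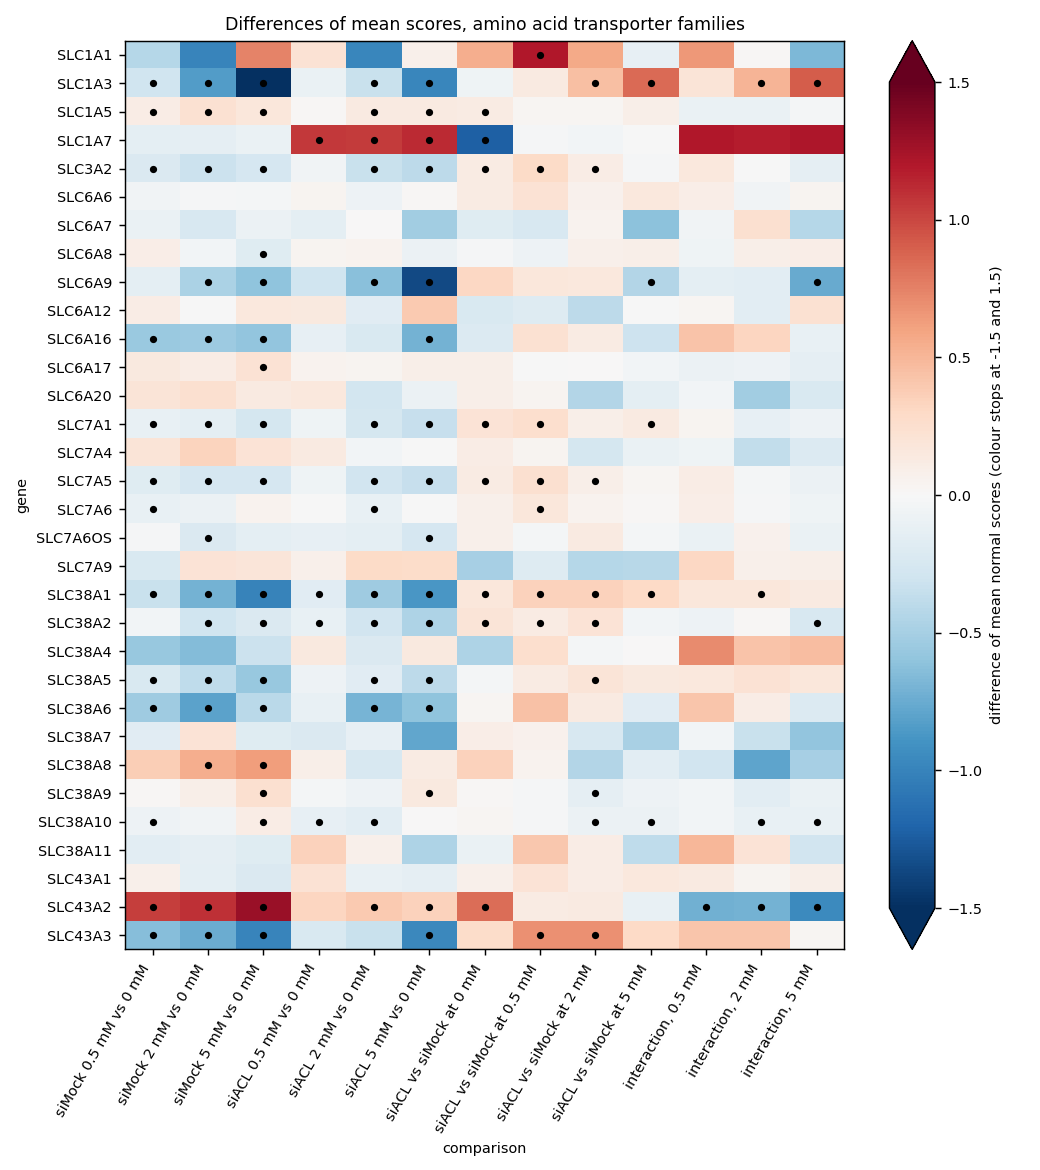
Differences of mean normal scores for 32 of the 33 genes (rows) in the 13 comparisons (columns), with red for higher, blue for lower and a black dot where limma called the difference. Dots on blue outnumber dots on red in each butyrate column, and red dots outnumber blue dots in the columns of siACL against siMock.

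**Figure D2:**
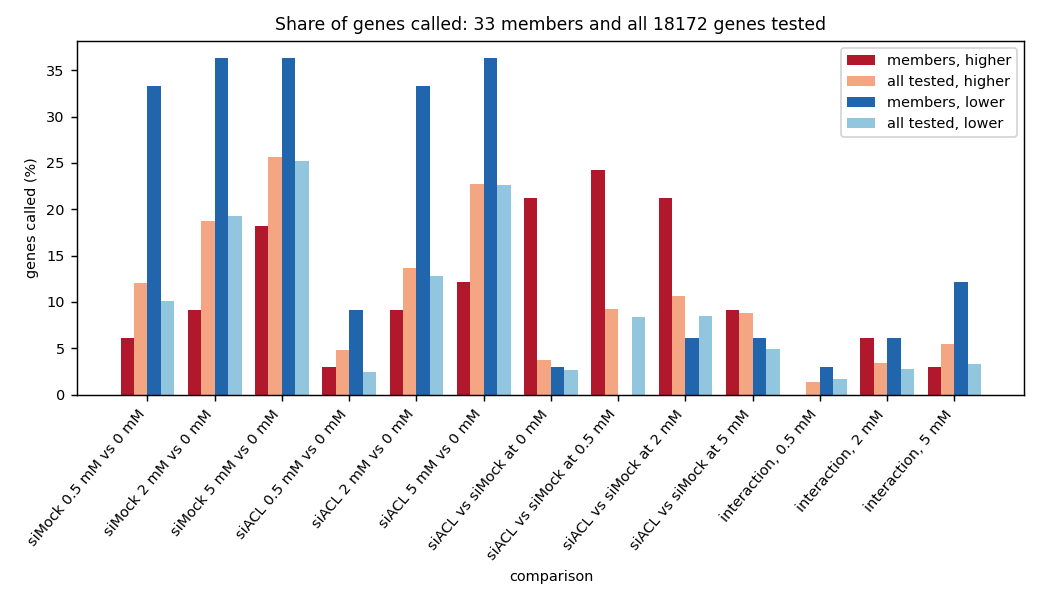
Percentage of genes called higher (red) and lower (blue) in each comparison, for the 33 members (dark bars) and for all 18172 genes tested (light bars). The dark blue bars exceed the light blue ones at each dose of both arms, for example 12 of 33 members against 25.2% of all genes in siMock at 5 mM.

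Precision followed the level of the gene. The 12 members whose mean score over the 24 arrays lay above 0 were all called in at least 1 of the 13 comparisons, and of the 21 with a mean at or below 0, 10 were. The share of all genes called in at least 1 comparison was not computed, so these counts are not set against a background. In a fit of all genes with a mean above 0, 75.6% were called in siMock at 5 mM alone. The median residual SD of all genes was 0.416 among the lowest when genes were split by mean score into 4 equal groups, and 0.033 among the highest. From the lowest of these groups to the highest there were 8, 13, 7 and 5 members. Signal over background cannot be given for these values, so for the low-scoring members it is not known whether a transcript was detected.

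SLC3A2 and SLC7A5, the heavy chain CD98 and its light chain LAT1, fell together in both arms and had started from higher scores in siACL. SLC3A2 had scores of 1.13, 1.12 and 1.10 in untreated siMock, 0.86, 0.91 and 0.95 at 0.5 mM, 0.74, 0.78 and 0.85 at 2 mM and 0.87, 0.88 and 0.85 at 5 mM. All 9 treated siMock arrays lay below the untreated ones, with differences of -0.21 ± 0.031, -0.33 ± 0.031 and -0.25 ± 0.031 (adjusted p = 1.9e-06 at 5 mM). In siACL its scores were 1.23, 1.26 and 1.22, then 1.17, 1.18 and 1.21 at 0.5 mM, 0.93, 0.86 and 0.94 at 2 mM and 0.80, 0.88 and 0.88 at 5 mM. There 0.5 mM was not called (-0.049 ± 0.031, adjusted p = 0.46), while 2 mM and 5 mM were lower by differences of -0.33 ± 0.031 and -0.39 ± 0.031. SLC7A5 had scores of 1.88, 1.83 and 1.88 in untreated siMock and 1.68, 1.71 and 1.67 at 0.5 mM, 1.61, 1.62 and 1.62 at 2 mM and 1.61, 1.60 and 1.62 at 5 mM. Its differences were -0.18 ± 0.024, -0.25 ± 0.024 and -0.25 ± 0.024 (adjusted p = 4.8e-08). In siACL SLC7A5 went from 1.94, 2.01 and 2.01 untreated to 1.91, 1.93 and 1.92 at 0.5 mM, 1.74, 1.71 and 1.66 at 2 mM and 1.65, 1.63 and 1.66 at 5 mM, with differences of -0.067 ± 0.024 (not called, adjusted p = 0.11), -0.28 ± 0.024 and -0.34 ± 0.024. In both arms most of the fall of SLC7A5 had occurred by 2 mM. With the 0.5 mM arrays as the reference, a setting added once the data had been seen, the siMock difference at 5 mM was -0.038 for SLC3A2 and was not called (adjusted p = 0.36).

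Both genes stood higher in siACL than in siMock until 5 mM. The arm difference of SLC3A2 was 0.12 ± 0.031 without butyrate (adjusted p = 0.025), 0.28 ± 0.031 at 0.5 mM (adjusted p = 7.6e-06), 0.12 ± 0.031 at 2 mM (adjusted p = 0.012) and -0.017 ± 0.031 at 5 mM (not called, adjusted p = 0.81). For SLC7A5 it was 0.12 ± 0.024 (adjusted p = 0.0049), 0.24 ± 0.024 (adjusted p = 3.2e-06), 0.086 ± 0.024 and 0.034 ± 0.024 (not called, adjusted p = 0.42). On percentile ranks the untreated difference was not called for either gene (2.41 points with adjusted p = 0.091 for SLC3A2, and 0.75 points with adjusted p = 0.15 for SLC7A5). The 2 mM call of SLC7A5 ended without siACL 2 mM replicate 1 (adjusted p = 0.081), and that of SLC3A2 when any 1 of 3 of the 6 arrays was left out. The untreated call of SLC3A2 also ended when any 1 of 5 of the 6 arrays was left out (adjusted p up to 0.097).

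Stretches before transcription starts of the heavy and light chain genes are shown because the 2 genes moved together. They are the 250 bases before the first start that the RefSeq promoter table (GRCh38.p14) lists for a gene, on the strand of the gene, for SLC3A2 at chr11:62881449-62881698 (plus strand) and for SLC7A5 at chr16:87869508-87869757 (minus strand). The table lists 3 starts for SLC3A2, and the one shown lies inside the gene as RefSeq bounds it, while SLC7A5 has 1. Capitals mark the GC box GGGCGG on either strand, the letters known to be bound by factors of the SP family.
SLC3A2: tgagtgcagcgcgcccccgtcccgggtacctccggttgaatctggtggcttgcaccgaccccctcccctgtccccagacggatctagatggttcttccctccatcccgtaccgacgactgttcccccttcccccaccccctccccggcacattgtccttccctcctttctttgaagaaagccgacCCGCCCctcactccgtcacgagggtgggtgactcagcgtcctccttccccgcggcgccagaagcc
SLC7A5: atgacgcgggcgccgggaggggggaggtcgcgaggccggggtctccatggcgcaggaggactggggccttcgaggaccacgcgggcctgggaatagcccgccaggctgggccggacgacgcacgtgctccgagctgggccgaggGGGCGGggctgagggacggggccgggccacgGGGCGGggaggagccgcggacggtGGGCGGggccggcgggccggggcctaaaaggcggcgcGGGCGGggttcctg
The window of SLC7A5 holds 4 GC boxes and that of SLC3A2 holds 1. Of the 28 members with an entry in the promoter table, 20 (71.4%) have a GC box before their first listed start, beside 42.3% of 27305 genes taken the same way and 56% of the 15843 that are protein-coding. The E-box CACGTG, bound by MYC and related factors, is in 5 of the 28 (17.9%), SLC7A5 among them, beside 6.49% of all genes and 7.84% of protein-coding ones. Over all 41 starts listed for these 28 members, 20 have a GC box and 6 an E-box before at least 1 start. Matches on both strands were counted, and in no member did matches of 2 motifs share bases. SLC43A3, SLC6A12, SLC6A6 and SLC7A4 are among those without an entry.

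Of the other 5 SLC7 entries, SLC7A1, SLC7A6 and SLC7A6OS were called in at least 1 comparison. SLC7A1 (CAT1), the carrier of arginine and lysine, fell at each dose in siMock. The 0.5 mM call (-0.11 ± 0.032, adjusted p = 0.016) was lost without siMock untreated replicate 1 or siMock 0.5 mM replicate 2 (adjusted p up to 0.093). Its scores were 1.33, 1.22 and 1.26 in untreated siMock, 1.16, 1.13 and 1.17 at 0.5 mM, 1.14, 1.13 and 1.11 at 2 mM and 0.999, 1.03 and 0.98 at 5 mM, with a difference at 5 mM of -0.26 ± 0.032 (adjusted p = 1.6e-06). In siACL the scores were 1.44, 1.52 and 1.47 untreated, 1.45, 1.36 and 1.41 at 0.5 mM, 1.15, 1.25 and 1.23 at 2 mM and 1.13, 1.15 and 1.12 at 5 mM, and the fall was called at 2 mM (-0.27 ± 0.032) and 5 mM (-0.34 ± 0.032). All siACL arrays of SLC7A1 lay above all siMock arrays of the same dose, and the arm difference was called at 0 mM (0.21 ± 0.032), 0.5 mM (0.25 ± 0.032) and 5 mM (0.13 ± 0.032), while at 2 mM it was 0.083 ± 0.032 (adjusted p = 0.085). SLC7A6, the light chain of the y+LAT2 exchanger, was lower at 0.5 mM in siMock (-0.11 ± 0.038, adjusted p = 0.0498) and at 2 mM in siACL (-0.11 ± 0.038, adjusted p = 0.039), calls that ended when any 1 of 5 of the 6 arrays was left out, in either arm, and at 5 mM it was not called in either arm. Its neighbour SLC7A6OS, which overlaps it in RefSeq, fell in siMock at 2 mM (-0.22 ± 0.071, adjusted p = 0.02) and in siACL at 5 mM (-0.25 ± 0.071, adjusted p = 0.0079). The 2 mM call was lost without siMock untreated replicate 2 or siMock 2 mM replicate 2 (adjusted p up to 0.12). Without siACL 5 mM replicate 3 the 5 mM call was lost (adjusted p = 0.056). SLC7A9, the light chain of the cystine and dibasic amino acid carrier of kidney and gut, and SLC7A4 were not called in any comparison. SLC7A4 had a residual SD of 0.565, the widest of the 33 members.

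Among the SLC1 genes the glutamate carrier SLC1A3 had the largest called fall of any member in siMock at 5 mM. SLC1A3 (EAAT1, known as the glutamate carrier of astrocytes) had scores of 0.49, 0.51 and 0.41 in untreated siMock, 0.17, 0.18 and 0.19 at 0.5 mM, -0.21, -0.46 and -0.43 at 2 mM and -1.69, -1.10 and -1.47 at 5 mM. No array overlapped with those of the next dose. The differences were -0.29 ± 0.10, adjusted p = 0.037, at 0.5 mM, -0.84 ± 0.10, adjusted p = 2e-06, at 2 mM and -1.89 ± 0.10, adjusted p = 2.2e-11, at 5 mM. The 0.5 mM call ended without any 1 of its 6 arrays (adjusted p up to 0.1). In siACL the scores started from nearly the same place, 0.42, 0.42 and 0.40, and were 0.33, 0.32 and 0.28 at 0.5 mM, 0.049, 0.10 and 0.11 at 2 mM and -0.49, -0.65 and -0.56 at 5 mM. Here too no dose overlapped with the next, and the differences were -0.10 ± 0.10 (not called, adjusted p = 0.68), -0.33 ± 0.10 (adjusted p = 0.017; adjusted p = 0.054 without siACL 2 mM replicate 1) and -0.98 ± 0.10 (adjusted p = 1.8e-07). The fall was smaller in siACL by 0.51 ± 0.14 at 2 mM (adjusted p = 0.035) and by 0.91 ± 0.14 at 5 mM (adjusted p = 0.00036). The 2 mM value lost its call when any 1 of 10 of the 12 arrays was left out, and the 5 mM value kept it without each of the 12.

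The window before the first listed start of SLC1A3 is shown because SLC1A3 is the 1 member of 28 with a match there to TGATGNAAN, the amino acid response element read by ATF4 and C/EBP factors, which 3.18% of all genes and 2.2% of protein-coding ones hold in that window. Over all listed starts SLC1A5 has a match too. It lies at chr5:36596338-36596587 (GRCh38.p14, plus strand), and capitals mark the match, whose first base is at position -220 counted from that start.
SLC1A3: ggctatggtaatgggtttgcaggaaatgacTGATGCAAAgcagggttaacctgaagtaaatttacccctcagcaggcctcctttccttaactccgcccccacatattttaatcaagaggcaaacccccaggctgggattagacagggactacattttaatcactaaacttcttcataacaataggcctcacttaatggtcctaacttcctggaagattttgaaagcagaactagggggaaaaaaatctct
A match in this window is a description of its letters, and neither SLC3A2 nor SLC7A5 has one before any listed start.

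SLC1A5 (ASCT2), the sodium-dependent exchanger of glutamine and other neutral amino acids, rose in siMock while the LAT1 pair fell. Its scores were 1.21, 1.17 and 1.24 in untreated siMock, 1.31, 1.37 and 1.29 at 0.5 mM, 1.40, 1.45 and 1.45 at 2 mM and 1.33, 1.36 and 1.42 at 5 mM. Every treated array was above the untreated ones, with differences of 0.12 ± 0.031, adjusted p = 0.011, then 0.23 ± 0.031 and 0.17 ± 0.031 at the higher doses (adjusted p = 0.00019 at 5 mM). The first of these was lost without siMock untreated replicate 2 or siMock 0.5 mM replicate 2 (adjusted p up to 0.064). In siACL SLC1A5 had scores of 1.36, 1.30 and 1.33 untreated, 1.34, 1.35 and 1.35 at 0.5 mM, 1.45, 1.43 and 1.51 at 2 mM and 1.50, 1.44 and 1.45 at 5 mM, and rose at 2 mM (0.13 ± 0.031) and 5 mM (0.13 ± 0.031). Without butyrate it was higher in siACL by 0.12 ± 0.031, adjusted p = 0.024, a call lost when any 1 of 4 of the 6 arrays was left out.

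SLC1A7 and SLC1A1 are low on these arrays and vary widely. SLC1A7 (EAAT5, a glutamate carrier of the retina) had scores of -2.16, -2.47 and -1.73 in untreated siACL, below all other arrays of that arm, which lay between -1.61 and -0.43. In untreated siMock they were -1.31, -0.33 and -1.05. Its rises in siACL, 1.06 ± 0.31, 1.05 ± 0.31 and 1.11 ± 0.31 (adjusted p = 0.0061), and its untreated arm difference of -1.22 ± 0.31, adjusted p = 0.023, rest on the same 3 untreated siACL arrays. On percentile ranks none of these 4 was called (adjusted p = 0.087 to 0.44). The calls at 0.5 and 2 mM and between the untreated arms also ended when any 1 of 5 of the 6, 2 of the 6 and 3 of the 6 arrays was left out. The epithelial and neuronal glutamate carrier SLC1A1 (EAAT3) was called once, higher in siACL than in siMock at 0.5 mM (1.20 ± 0.39, adjusted p = 0.041), and that call ended without any 1 of the 6 arrays. Its siMock scores were -1.99, -1.19 and -1.20 without butyrate and -1.15, -0.36 and -0.63 at 5 mM, with no call (0.75 ± 0.39, adjusted p = 0.12). On percentile ranks this difference was called higher (16.5 points, adjusted p = 0.0075), and so it was against 0.5 mM (1.18, adjusted p = 0.02).

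In the SLC38 family of sodium-coupled neutral amino acid carriers some genes fell and others rose. At 5 mM in siMock SLC38A1, SLC38A2, SLC38A5 and SLC38A6 fell, SLC38A8, SLC38A9 and SLC38A10 rose, and 3 of the 10 were not called. Of all genes 25.2% fell and 25.6% rose there, so with 10 genes this is not set apart from the background. In siACL the same 4 fell at 5 mM and SLC38A9 alone rose, beside 22.6% and 22.7% of all genes. SLC38A1 (SNAT1), a glutamine carrier, had scores of 0.84, 0.83 and 0.81 in untreated siMock, 0.49, 0.47 and 0.51 at 0.5 mM, 0.19, 0.10 and 0.075 at 2 mM and -0.094, -0.23 and -0.20 at 5 mM. In siACL they were 0.99, 1.02 and 0.98 untreated, 0.87, 0.81 and 0.81 at 0.5 mM, 0.47, 0.49 and 0.44 at 2 mM and 0.10, 0.13 and 0.15 at 5 mM. In each arm every dose lay below the one before it with no overlap, and in every dose the siACL arrays lay above the siMock arrays. The differences from untreated were -0.34 ± 0.034, -0.71 ± 0.034 and -1.003 ± 0.034 in siMock (adjusted p = 1.1e-13 at 5 mM) and -0.17 ± 0.034, -0.53 ± 0.034 and -0.87 ± 0.034 in siACL (adjusted p = 1.2e-12). It was the 1 member called higher in siACL at all 4 doses, by 0.17 ± 0.034, 0.34 ± 0.034, 0.35 ± 0.034 and 0.30 ± 0.034.

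SLC38A2 (SNAT2), the carrier whose transcript is known to be induced by amino acid shortage, is the next protein-coding gene to SLC38A1 in RefSeq. Its scores were 1.71, 1.68 and 1.70 in untreated siMock, 1.68, 1.64 and 1.64 at 0.5 mM, 1.38, 1.43 and 1.38 at 2 mM and 1.50, 1.51 and 1.42 at 5 mM, so the 2 mM arrays were among the lowest and the fall did not deepen at 5 mM (-0.30 ± 0.032 and -0.22 ± 0.032). In siACL the scores were 1.91, 1.88 and 1.87 untreated, 1.85, 1.76 and 1.71 at 0.5 mM, 1.62, 1.56 and 1.63 at 2 mM and 1.45, 1.41 and 1.43 at 5 mM, each dose below the last without overlap. The siACL fall at 0.5 mM (-0.12 ± 0.032, adjusted p = 0.034) was lost when any 1 of 5 of the 6 arrays was left out and on percentile ranks (adjusted p = 0.25). The siACL difference at 5 mM was -0.46 ± 0.032 (adjusted p = 2.1e-09), with a difference from the siMock change of -0.24 ± 0.045, adjusted p = 0.0025. The arm difference was called at 0 mM (0.19 ± 0.032), 0.5 mM (0.12 ± 0.032) and 2 mM (0.21 ± 0.032), and at 5 mM it was -0.045 ± 0.032 (adjusted p = 0.42). The 0.5 mM call was lost when any 1 of 3 of the 6 arrays was left out (adjusted p up to 0.097) and on percentile ranks (adjusted p = 0.083). SLC38A4, the next gene along, was not called in any comparison, with a residual SD of 0.549.

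SLC38A5 (SNAT5), which carries glutamine, serine and glycine, went from 0.63, 0.52 and 0.62 in untreated siMock to -0.088, 0.13 and 0.023 at 5 mM, and from 0.52, 0.65 and 0.52 to 0.073, 0.26 and 0.15 in siACL. The 5 mM arrays lay below the untreated ones in both arms, with differences of -0.57 ± 0.058, adjusted p = 1.6e-07, in siMock and -0.40 ± 0.058, adjusted p = 1.6e-05, in siACL. SLC38A6 went from 0.054, -0.20 and -0.26 to -1.18, -0.78 and -0.83 at 2 mM and -0.38, -0.77 and -0.47 at 5 mM in siMock. Its fall was -0.80 ± 0.16 at 2 mM and -0.41 ± 0.16, adjusted p = 0.047, at 5 mM, the second lost when any 1 of 4 of the 6 arrays was left out and in the fit with only the 6 arrays compared (adjusted p = 0.069). In siACL SLC38A6 fell by differences of -0.69 ± 0.16 and -0.61 ± 0.16.

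SLC38A9, the lysosomal arginine sensor that acts on mTORC1, rose late. Its siMock scores were 0.084, 0.065 and 0.12 in untreated arrays and 0.38, 0.29 and 0.32 at 5 mM, and its siACL scores 0.17, 0.13 and 0.024 and 0.21, 0.27 and 0.28. The 5 mM arrays lay above the untreated ones in both arms (0.24 ± 0.043, adjusted p = 0.00012, in siMock and 0.14 ± 0.043, adjusted p = 0.011, in siACL). The siACL call was lost without siACL untreated replicate 3 (adjusted p = 0.08). SLC38A10 first fell and then rose in siMock, with scores of 0.42, 0.43 and 0.39 in untreated arrays, 0.34, 0.36 and 0.30 at 0.5 mM, 0.36, 0.34 and 0.38 at 2 mM and 0.55, 0.52 and 0.52 at 5 mM. Its differences were -0.08 ± 0.022 (lower, adjusted p = 0.013; up to 0.073 without siMock untreated replicate 2 or siMock 0.5 mM replicate 3), -0.052 ± 0.022 (not called, adjusted p = 0.074) and 0.11 ± 0.022 (higher, adjusted p = 0.00024). In siACL SLC38A10 was lower at 0.5 mM (-0.12 ± 0.022) and 2 mM (-0.16 ± 0.022) and near its untreated level at 5 mM (0.005 ± 0.022, adjusted p = 0.88). SLC38A8 rose in siMock at 2 mM (0.55 ± 0.20, adjusted p = 0.042) and 5 mM (0.63 ± 0.20, adjusted p = 0.016), from -0.62, -0.53 and -1.12 to -0.20, -0.073 and -0.11 at 5 mM. Without siMock untreated replicate 3, the lowest of these arrays, the 5 mM call was lost (adjusted p = 0.099). The 2 mM call was also lost without that array, without siMock 2 mM replicate 1 or without siMock 2 mM replicate 2 (adjusted p up to 0.21). SLC38A7, a lysosomal glutamine exporter, and SLC38A11 were not called in any comparison.

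Of the 3 genes of the SLC43 family 1 rose and 1 fell at 5 mM in both arms, beside the shares of all genes given above. SLC43A2 (LAT4), which lets branched-chain amino acids and phenylalanine leave or enter without sodium, had the largest called rise of any member in siMock at 5 mM. Its scores were -0.63, -1.49 and -0.97 in untreated siMock, -0.052, 0.015 and 0.049 at 0.5 mM, 0.043, 0.053 and 0.10 at 2 mM and 0.28, 0.20 and 0.31 at 5 mM. The untreated arrays were the lowest of all 24 and also far apart from each other. The differences were 1.04 ± 0.13, 1.10 ± 0.13 and 1.30 ± 0.13 (adjusted p = 1.6e-07 at 5 mM), and these share the same 3 untreated arrays. Against 0.5 mM the 5 mM difference in siMock was 0.26 and was not called (adjusted p = 0.12). In siACL SLC43A2 had scores of -0.034, -0.23 and -0.32 untreated, 0.13, 0.13 and 0.12 at 0.5 mM, 0.22, 0.21 and 0.17 at 2 mM and 0.22, 0.10 and 0.13 at 5 mM. Its rises there were 0.39 ± 0.13, adjusted p = 0.034, at 2 mM and 0.34 ± 0.13, adjusted p = 0.041, at 5 mM, each lost when any 1 of 5 of the 6 arrays was left out. Without butyrate it was higher in siACL by 0.84 ± 0.13, adjusted p = 0.00084, and with butyrate the arms differed by 0.12 ± 0.13, 0.13 ± 0.13 and -0.11 ± 0.13, none of them called. With only the 6 arrays of a comparison in the fit, the untreated arm difference was not called (adjusted p = 0.19). Nor was the siMock rise at 0.5 mM in such a fit (adjusted p = 0.058).

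SLC43A3, which is related by sequence but is known as a carrier of purine nucleobases, fell. Its scores were -0.38, -0.18 and -0.50 in untreated siMock and -1.57, -1.38 and -1.09 at 5 mM, and -0.092, -0.068 and -0.07 in untreated siACL and -1.08, -0.97 and -1.09 at 5 mM. In both arms the 5 mM arrays lay below the untreated ones, with differences of -0.99 ± 0.21, adjusted p = 0.00059, and -0.97 ± 0.21, adjusted p = 0.00089. It was higher in siACL at 0.5 mM (0.69 ± 0.21, adjusted p = 0.029) and 2 mM (0.69 ± 0.21, adjusted p = 0.027), calls lost when any 1 of 4 of the 6 and of 3 of the 6 arrays was left out. SLC43A1 (LAT3), a sodium-independent carrier of leucine like SLC43A2, was not called in any comparison. SLC43A3 and SLC43A1 lie near each other in RefSeq with 1 protein-coding gene between them.

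The window before the first of the 3 listed starts of SLC43A2 is shown beside that of SLC1A3 as those of the largest rise and the largest fall in siMock. It lies at chr17:1605035-1605284 (GRCh38.p14, minus strand), inside the gene as RefSeq bounds it. Its capitals mark the GC box, of which it holds 1, and the windows of the other listed starts hold the GC box too.
SLC43A2: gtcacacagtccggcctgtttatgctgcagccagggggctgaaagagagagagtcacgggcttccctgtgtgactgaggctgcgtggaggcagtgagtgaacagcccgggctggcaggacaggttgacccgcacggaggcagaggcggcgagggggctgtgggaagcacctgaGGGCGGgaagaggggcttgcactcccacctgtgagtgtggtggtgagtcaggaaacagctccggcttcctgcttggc

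Of the 9 SLC6 genes, SLC6A9 and SLC6A16 fell in both arms at 5 mM. SLC6A9 (GlyT1), a sodium- and chloride-driven glycine carrier, had scores of -0.44, -0.39 and -0.54 in untreated siMock, -0.41, -0.62 and -0.79 at 0.5 mM, -0.96, -0.84 and -0.97 at 2 mM and -1.36, -0.82 and -0.98 at 5 mM. In siACL they were -0.18, -0.11 and -0.15 untreated, -0.48, -0.36 and -0.48 at 0.5 mM, -0.56, -0.89 and -0.85 at 2 mM and -1.61, -1.43 and -1.45 at 5 mM. The siACL arrays began above the siMock arrays and ended below them. SLC6A9 fell at 5 mM in siMock (-0.60 ± 0.12, adjusted p = 0.00026) and in siACL (-1.35 ± 0.12, adjusted p = 2.8e-08), and the siACL change minus that of siMock was -0.76 ± 0.16, adjusted p = 0.0068. This last call was lost with a trended, robust variance prior (adjusted p = 0.051). The arm difference was 0.31 ± 0.12, adjusted p = 0.13, without butyrate and -0.44 ± 0.12, adjusted p = 0.016, at 5 mM. The 5 mM call was lost without siMock 5 mM replicate 2, without siMock 5 mM replicate 3 or without siACL 5 mM replicate 1 (adjusted p up to 0.085).

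SLC6A16, an orphan carrier of this family, had scores of -0.072, -0.0057 and -0.023 in untreated siMock and -0.65, -0.47 and -0.66 at 0.5 mM, -1.11, -0.25 and -0.40 at 2 mM and -0.68, -0.58 and -0.63 at 5 mM. All treated arrays lay below the untreated ones, with nearly equal differences at the 3 doses of -0.56 ± 0.17, -0.55 ± 0.17 and -0.60 ± 0.17 (adjusted p = 0.006 at 5 mM). The first was lost when any 1 of 4 of the 6 arrays was left out, and the 2 mM one without siMock 2 mM replicate 1 (adjusted p = 0.094). In siACL SLC6A16 fell at 5 mM by a difference of -0.71 ± 0.17, adjusted p = 0.002. SLC6A8, the creatine carrier, was lower in siMock at 5 mM (-0.18 ± 0.053, adjusted p = 0.0075). SLC6A17, a carrier of neutral amino acids into synaptic vesicles, was higher there (0.22 ± 0.066, adjusted p = 0.0096), a call lost without siMock untreated replicate 2 (adjusted p = 0.076). The taurine carrier SLC6A6, the proline carrier SLC6A7, the betaine and GABA carrier SLC6A12 and the imino acid carrier SLC6A20 were not called in any comparison. Their means over the 24 arrays were all below 0, with residual SDs from 0.21 to 0.353.

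**Figure D3:**
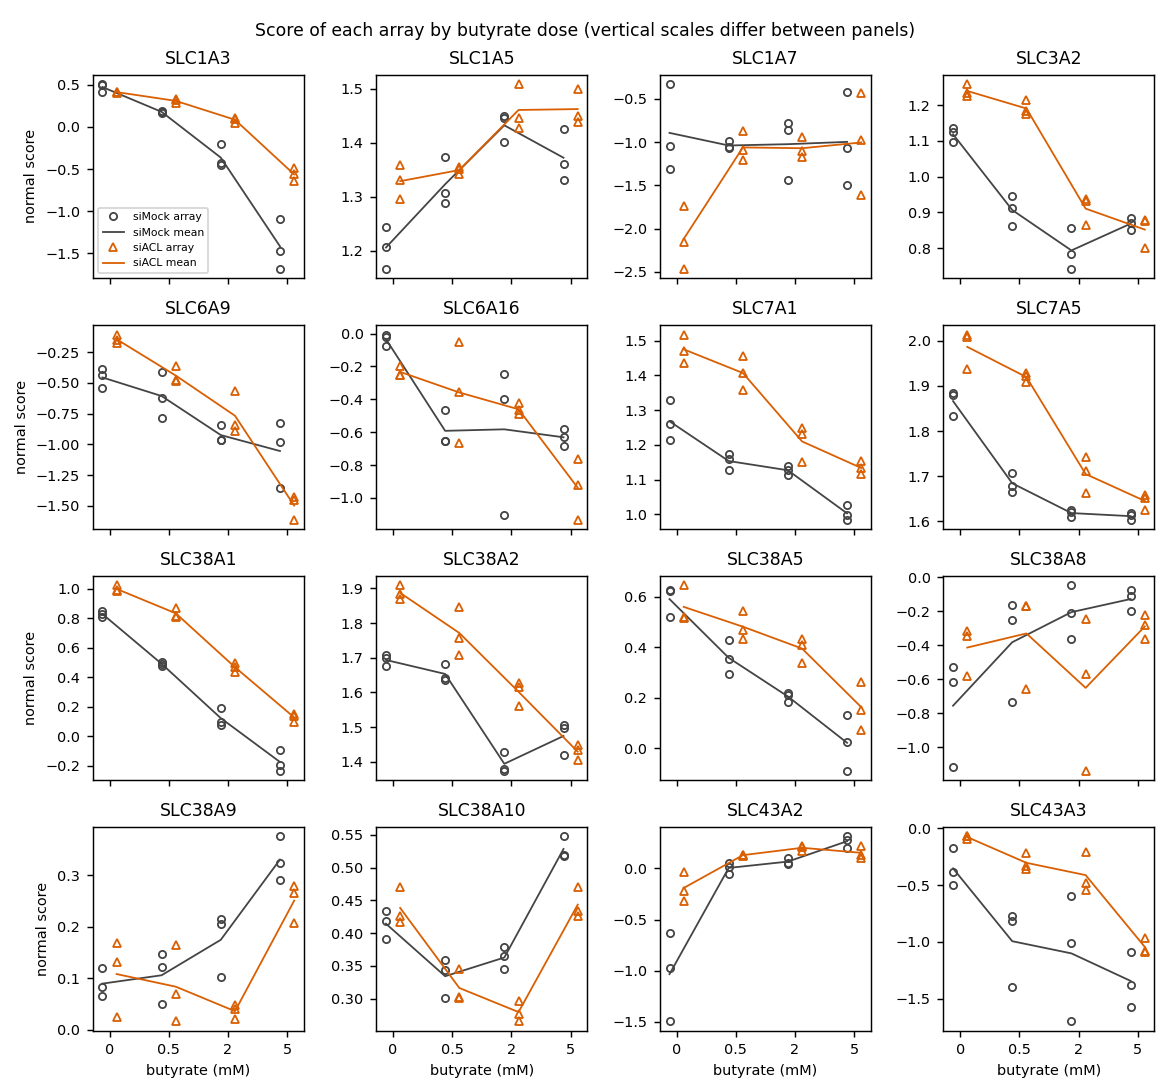
Normal score of each array (circles siMock, triangles siACL) against butyrate dose in mM for 16 members, with lines through the group means of 3 arrays and a vertical scale of its own in each panel. SLC38A1 steps down at every dose in both arms with siACL above siMock, SLC43A2 is low in untreated siMock, and SLC6A9 ends lower in siACL than in siMock.

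More of these genes were higher than lower in siACL against siMock at 0, 0.5 and 2 mM. Of the 33 members 7 were higher and 1 lower without butyrate, 8 and 0 at 0.5 mM, 7 and 2 at 2 mM, and 3 and 2 at 5 mM. Over all genes tested, 3.7%, 9.26%, 10.6% and 8.8% were higher at these doses and 2.61%, 8.42%, 8.52% and 4.91% lower. The called members were 24.2%, 24.2%, 27.3% and 15.2%, against 6.31%, 17.7%, 19.1% and 13.7% of all genes. At 0.5 mM the 0 members called lower are a count from limma, and 10 members had an unadjusted p under 0.05 in either direction. The medians of the members were 0.083, 0.125, 0.083 and -0.045, with 0.003, 0.002, -0.002 and 0.001 for all genes. Without butyrate the higher genes were SLC1A5, SLC3A2, SLC7A1, SLC7A5, SLC38A1, SLC38A2 and SLC43A2, and SLC1A7 was lower. Of these, SLC38A1, SLC38A2, SLC7A1, SLC3A2 and SLC7A5 were also higher at 0.5 mM. The other higher genes at 0.5 mM were SLC7A6 (0.17 ± 0.038), SLC1A1 and SLC43A3. At 2 mM SLC38A1, SLC38A2, SLC38A5, SLC3A2, SLC7A5, SLC1A3 (0.45 ± 0.10) and SLC43A3 were higher, and SLC38A9 (-0.14 ± 0.043) and SLC38A10 (-0.083 ± 0.022) lower. At 5 mM SLC1A3 (0.85 ± 0.10, adjusted p = 1.1e-05), SLC38A1 and SLC7A1 were higher, and SLC6A9 and SLC38A10 (-0.085 ± 0.022) lower. The calls of SLC38A5 and SLC38A9 at 2 mM each ended when any 1 of 5 of the 6 arrays was left out (adjusted p up to 0.09 and 0.11), and that of SLC38A10 at 5 mM when any 1 of 3 of the 6 was. In the fit with only the 6 arrays of a comparison, limma called 0 members without butyrate (11 at an unadjusted p under 0.05), where 0.149% of all genes were called. The same fit called 6, 4 and 1 at 0.5, 2 and 5 mM, beside 8.52%, 4.21% and 2.27% of all genes. At 5 mM SLC1A3 (adjusted p = 0.071), SLC7A1 (adjusted p = 0.074), SLC6A9 (adjusted p = 0.19) and SLC38A10 (adjusted p = 0.15) lost their calls in it.

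For few members was the response to butyrate called different between the arms. At 2 and 5 mM their share was above that of all genes, and the lack of a call does not show equal responses. At 0.5 mM 1 was called in the interaction test, which takes the change of siMock from that of siACL, at 2 mM 4 and at 5 mM 5, which is 3.03%, 12.1% and 15.2% of the members, against 3.1%, 6.19% and 8.85% of all genes. A value above 0 in this test was called for 0, 2 and 1 members (1.39%, 3.46% and 5.5% of all genes) and a value below 0 for 1, 2 and 4 (1.72%, 2.73% and 3.35%). At 0.5 mM it was SLC43A2 (-0.72 ± 0.19, adjusted p = 0.044), a call lost when any 1 of 10 of the 12 arrays was left out (adjusted p up to 0.11) and with all entries tested (adjusted p = 0.054). At 2 mM the smaller changes in siACL were those of SLC43A2 (-0.71 ± 0.19, adjusted p = 0.031), SLC1A3 and SLC38A1 (0.18 ± 0.048, adjusted p = 0.038), and SLC38A10 had -0.11 ± 0.031, adjusted p = 0.048, with a called fall in siACL alone. These 2 mM calls ended when any 1 of 8 of the 12 arrays was left out for SLC43A2, of 10 of the 12 for SLC1A3, of 8 of the 12 for SLC38A1 and of 11 of the 12 for SLC38A10. At 5 mM SLC43A2 had -0.95 ± 0.19, adjusted p = 0.0031, and SLC38A10 -0.11 ± 0.031, adjusted p = 0.034, beside SLC1A3, SLC6A9 and SLC38A2 as given above. The 5 mM calls of SLC43A2, SLC1A3, SLC6A9 and SLC38A2 held without each of the 12 arrays in turn. That of SLC38A10 ended when any 1 of 7 of the 12 was left out. A limma fit on its 12 arrays alone did not call SLC43A2 at 5 mM (adjusted p = 0.064). For SLC43A2 the arms were called apart without butyrate and at no dose with it. For SLC1A3 the arms differed by -0.06 ± 0.10 without butyrate (adjusted p = 0.8) and by 0.85 ± 0.10 at 5 mM. The latter was not called with only its 6 arrays in the fit (adjusted p = 0.071). SLC1A7 had a difference of 1.22 ± 0.44, adjusted p = 0.099, at 5 mM and was not called. SLC38A1 was not called in this test at 0.5 mM. It was called there in some other settings, such as array weights (0.17, adjusted p = 0.036) and a trended, robust prior (0.17, adjusted p = 0.047). On percentile ranks it was called at 5 mM (7.53 points, adjusted p = 0.009). As a description across the 33 genes, which are not independent replicates, the changes in siMock and siACL correlated at r = 0.288, 0.569 and 0.684 at 0.5, 2 and 5 mM.

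**Figure D4:**
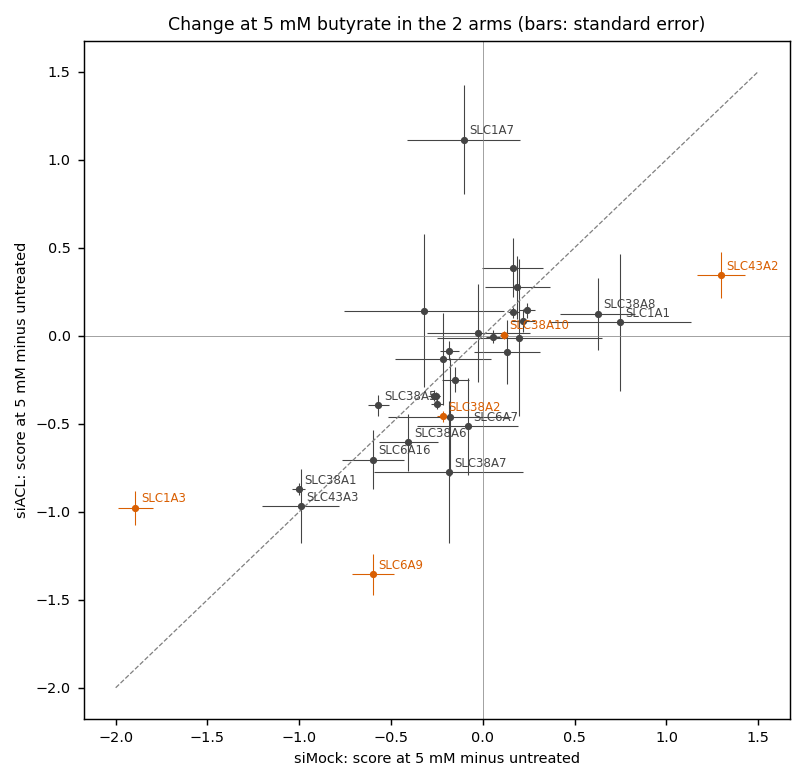
Difference of mean normal scores between 5 mM and untreated arrays in siMock (horizontal) and in siACL (vertical) for 32 of the 33 members, with standard errors as bars, the dashed line marking equal change and orange marking the 5 genes whose changes differed between the arms by limma. SLC1A3 and SLC43A2 lie farther from 0 in siMock, and SLC6A9 and SLC38A2 farther from 0 in siACL.

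At 5 mM more rises than falls were called among other amino acid carriers and sensors in both arms. Among enzymes of amino acid metabolism more falls than rises were called. The lists are small, and some of these counts, such as the 6 falls of sensor genes in siACL, were near the shares of all genes. Of 17 measured amino acid carriers outside these families, 9 rose and 4 fell in siMock at 5 mM, and 8 rose and 3 fell in siACL, beside 25.6% and 25.2%, and 22.7% and 22.6%, of all genes. SLC17A7, a vesicular glutamate carrier, rose by 1.77 ± 0.20 (adjusted p = 7.4e-07), SLC36A1, a proton-driven lysosomal amino acid carrier, by 0.79 ± 0.046 (adjusted p = 1.3e-10), and SLC25A44, the mitochondrial carrier of branched-chain amino acids, by 0.56 ± 0.031 (adjusted p = 5.9e-11), while the mitochondrial ornithine carrier SLC25A15 had a difference of -0.40 ± 0.026 (adjusted p = 4.3e-10). Of 26 measured genes of amino acid sensing by mTORC1 and GCN2, 9 rose and 5 fell in siMock at 5 mM, and 8 rose and 6 fell in siACL. The same shares of all genes apply, so the 6 falls in siACL stand beside 22.6%. SESN3, a sestrin (0.96 ± 0.24), MAPKSP1, now LAMTOR3, of the Ragulator complex (0.59 ± 0.12), and RRAGA, a Rag GTPase (0.44 ± 0.026), rose, and C16orf35, now NPRL3, of the GATOR1 complex, was lower (-0.39 ± 0.032). Of 35 measured genes of amino acid synthesis and breakdown, 13 rose and 16 fell in siMock at 5 mM, and 8 rose and 18 fell in siACL, beside the same shares of all genes. At 0.5 mM more of these enzyme genes rose than fell, 11 and 3 in siMock and 5 and 2 in siACL. Of all genes 12% rose and 10.1% fell at that dose in siMock, and 4.79% and 2.45% in siACL. PRODH, proline dehydrogenase (1.77 ± 0.18), ARG2, mitochondrial arginase (0.86 ± 0.12), GLDC of the glycine cleavage system (0.64 ± 0.033) and BCKDHB of the branched-chain keto acid dehydrogenase (0.43 ± 0.063) had the 4 largest called differences of that list, all rises. Of the membrane partners, ARL6IP5, which binds SLC1A1, fell in siMock at 5 mM (-0.25 ± 0.023, adjusted p = 6.3e-08).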

How the data were processed

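RNA of HCT116 cells was hybridised to 24 Illumina arrays, 3 for each of 8 groups, called biological replicates in the labels, and nothing says whether they came from separate transfections, so p-values measure the spread between these arrays. The values deposited by the authors are scores: each of the 20747 entries holds the normal quantile of its rank within its array (largest gap to the exact quantile 0.00074, from -3.9 to 3.9), as read from the values themselves. For background correction, the choice of entries and the software, the sources used here give nothing. A table of scanner values has 48 columns that could not be tied to samples, and only its annotation was used. Counting depth does not exist for arrays, and the number of arrays limits the precision.

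The 18172 entries with a gene symbol entered a linear model in limma 3.58.1 (R 4.3.3) that gave each group its own mean and took its error from all 24 arrays, and p-values were Benjamini-Hochberg adjusted over all of them in each of 13 comparisons. The other 2575 entries were left out. One member, counted in all totals, and one gene of another list are not reported here by name. The plan expected log2 values, and the same fit was applied to the scores. No 2 arrays shared more than 0.222% of their values, so none was counted as a duplicate. Of the members, 32 matched RefSeq by accession and 1 by symbol. Every-array values are given by rule for the 6 largest called rises and falls without overlap in siMock at 5 mM, the 4 largest each way in siACL at 5 mM and in siACL against siMock at 0 and 5 mM, the 6 largest called interactions at 5 mM, and SLC3A2 and SLC7A5. The values of SLC1A1 and SLC38A6 were added after they were seen. Of each other list, up to 4 of the largest called genes in siMock at 5 mM are named. The members, lists and rules were chosen with earlier results of these data known. The script was tested on simulated data. Alternatives were the arrays entering the fit, array weights, a trended and robust prior, a block for the replicate number, adjusted p under 0.01, a filter on mean score, percentile ranks, ranking again, other entries, and leaving out each array.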

Additional observations from a re-analysis of the deposited data

Results flagged for a closer look

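Each of the following members changed by a different amount with butyrate in siACL than in siMock, by limma's interaction test at one dose (change of siACL minus that of siMock). SLC43A2 had differences of -0.72 ± 0.19, adjusted p = 0.044, at 0.5 mM, -0.71 ± 0.19, adjusted p = 0.031, at 2 mM and -0.95 ± 0.19, adjusted p = 0.0031, at 5 mM, which share the untreated arrays of both arms. SLC1A3 had differences of 0.51 ± 0.14, adjusted p = 0.035, at 2 mM and 0.91 ± 0.14, adjusted p = 0.00036, at 5 mM. SLC38A1 had 0.18 ± 0.048, adjusted p = 0.038, at 2 mM, and SLC38A10 had -0.11 ± 0.031, adjusted p = 0.048, at 2 mM and -0.11 ± 0.031, adjusted p = 0.034, at 5 mM. SLC38A2 had -0.24 ± 0.045, adjusted p = 0.0025, and SLC6A9 had -0.76 ± 0.16, adjusted p = 0.0068, both at 5 mM. The calls at 0.5 and 2 mM and that of SLC38A10 at 5 mM depended on single arrays. Each was lost when any 1 of at least 7 of the 12 arrays was left out. The other 5 mM calls were kept without each array in turn. Fitted by limma on its 12 arrays alone, SLC43A2 at 5 mM was not called (adjusted p = 0.064). The 5 mM call of SLC6A9 was lost with a trended, robust variance prior (adjusted p = 0.051).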

How the results depend on the processing

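Values are ranks, so a change shared by all genes, fold changes and detection are outside what they can show, and the low-scoring members have the widest error. Of 120 called member differences, 110 were called on percentile ranks, 116 with array weights, 113 with a trended and robust prior, 115 with all entries tested, 118 after ranking again, 120 with members taken by current symbol, 77 at adjusted p under 0.01 and 69 with only the arrays compared. Leaving out each array in turn ended 44 of them at least once and 76 never. Why a call was lost was not tested. With only the arrays compared, the members called were 5 in siMock and 0 in siACL at 0.5 mM (10 in siACL at an unadjusted p under 0.05), 0, 4 and 1 between the arms at 0, 2 and 5 mM (11 at 0 mM at an unadjusted p under 0.05), and 1 and 3 in the difference of responses at 2 and 5 mM. Of all genes, 8.36% and 1.45% were called in the first 2 of these comparisons. Between the arms 0.149%, 4.21% and 2.27% were called, and in the difference of responses 2.77% and 5.64%. At adjusted p under 0.01 the members called were 5 in siMock at 0.5 mM, 2 and 9 in siACL at 0.5 and 2 mM, 5, 5, 3 and 2 between the arms from 0 to 5 mM, and 0 and 0 in the difference of responses at 0.5 and 2 mM. Of all genes, 14.2% passed in that siMock comparison and 3.61% and 18.5% in those of siACL. Between the arms 2.59%, 9.73%, 11.2% and 6.9% passed, and in the difference of responses 1.01% and 2.55%. Among the 12 members with a mean score above 0 the members called were 8, 9 and 11 in siMock at 0.5, 2 and 5 mM, 9 and 8 in siACL at 2 and 5 mM, and 3 and 2 in the difference of responses at 0.5 and 2 mM. Of all genes with such a mean, 40%, 60.4% and 75.6% were called in siMock and 48% and 70.4% in siACL. In the difference of responses 8.97% and 15.2% of them were called. The difference of responses at 0.5 mM gave 3 with array weights, 4 with the trended prior and 0 with all entries. Of all genes tested, 3.9%, 4% and 2.12% were called in these 3 settings. Against 0.5 mM, chosen after seeing the data, 5 members were called in siMock and 7 in siACL at 2 mM, beside 21.6% and 13.8% of all genes. Against that reference SLC6A16 in siMock at 2 mM (0.0092), SLC38A6 in siMock at 5 mM (0.12) and SLC1A7 in siACL at 2 mM (-0.0094) turned sign without a call.

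Without 1 array each, the members called ranged from 7 (without siMock untreated replicate 2) to 10 in siMock at 0.5 mM, 13 to 18 at 2 mM and 16 to 18 at 5 mM. In siACL they ranged from 2 to 3, 10 to 13 and 14 to 16. Between the arms they ranged from 5 (without siMock untreated replicate 2 or siACL untreated replicate 1) to 7, 5 (without siACL 0.5 mM replicate 1) to 7, 6 to 9 and 3 (without siACL 5 mM replicate 1) to 5 from 0 to 5 mM. In the difference of responses they ranged from 0 to 1, 0 to 3 and 4 to 6. The shares of all genes called in these refits are not given here. These ranges therefore cannot tell a change of the members from a change of calls over all genes.

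No pairing by replicate number was seen: deviations of same-numbered arrays over all genes correlated at -0.04 to 0.03 over 84 pairs. Scores hold no shift common to all genes, so these values cannot show that the replicates were unpaired. With the replicate number as a block, 12, 15 and 17 members were called in siMock, beside 22%, 37.8% and 50.8% of all genes, and 115 of the 120 differences were called.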

Other observations

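Another 3 entries belong to these families by their current symbol though not by the symbol in the table. TMEM104, now SLC38A12, was higher with butyrate in siMock at 2 mM (1.30 ± 0.30, adjusted p = 0.0019) and 5 mM (1.73 ± 0.30, adjusted p = 8.3e-05), and in siACL at 5 mM (0.93 ± 0.30, adjusted p = 0.017). IMAA, now SLC7A5P2, a pseudogene of SLC7A5, was higher at 5 mM by 0.08 ± 0.03 in siMock (adjusted p = 0.033) and 0.10 ± 0.03 in siACL (adjusted p = 0.011), while SLC7A5 fell. LAT1-3TM, now SLC7A5P1, was not called in any of the 13 comparisons, with differences from -0.157 to 0.175.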
